A study of Homo sapiens with 9 samples.

Results

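The 77 genes described here encode the proteins of the cytosolic ribosome, 46 of the large (60S) subunit and 31 of the small (40S) subunit. They were taken by symbol from 60880 gene rows: RPL or RPS followed by digits and at most one letter A or X, together with RPLP0, RPLP1, RPLP2 and RPSA. RPS27L and the RPS6K kinases were left out. All 77 passed the filter on low counts, among 18389 genes tested.

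LNCaP, an established cell line, comes from a human prostate cancer and responds to androgen. RNA was sequenced from 3 groups of 3 libraries each, all labelled as taken at 24 h from cells in RPMI medium with fetal bovine serum. The control carried a label of NT, the knockdown was 1 line labelled KD4 with UGT2B28 knockdown, and the rescue was labelled as that knockdown with UGT2B28 overexpressed. Puromycin at 3 µg/mL served as selection for the knockdown and G418 at 1 mg/mL for the rescue. No selection is named for the control, so selection and genotype cannot be told apart. The labels do not say that the libraries of a group came from separate cultures, so a p-value here speaks only to the spread seen among these libraries, and that spread may be technical.

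Ribosomal proteins assemble on ribosomal RNA in the nucleolus, after synthesis in the cytoplasm and import into the nucleus. Their mRNAs are among the most abundant of dividing cells, and most begin with a C followed by a run of pyrimidines, the 5′ terminal oligopyrimidine (TOP) tract, through which mTORC1 and LARP1 control their translation and stability. Many of the genes also carry small nucleolar RNAs (snoRNAs) in their introns.

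RefSeq promoter windows on GRCh38.p14 were found for 62 of the 77 genes. Of these, 42 (67.7%) had a TOP start at the annotated first base, defined as a C followed by at least 4 pyrimidines, against 4.04% of the 27305 promoters in the table. The sequences below run from 45 bases before the annotated start to 15 bases after the start of transcription, 5′ to 3′, with the TOP tract in capitals and all else in lower case. They are shown because these genes carry the results: RPL28, RPL12, RPS12, RPL13 and RPL4 fell in the rescue against the knockdown, RPL22 rose in the knockdown, and RPL41 and RPL38 encode small proteins and were low in control replicate 1.
RPL28, chr19:55385887-55385946, plus strand: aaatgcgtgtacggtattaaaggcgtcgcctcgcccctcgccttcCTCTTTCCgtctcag
RPL12, chr9:127451392-127451451, minus strand: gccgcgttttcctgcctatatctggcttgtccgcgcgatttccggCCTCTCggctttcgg
RPS12, chr6:132814524-132814583, plus strand: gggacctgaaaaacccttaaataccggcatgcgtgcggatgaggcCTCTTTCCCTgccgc
RPL13, chr16:89560612-89560671, plus strand: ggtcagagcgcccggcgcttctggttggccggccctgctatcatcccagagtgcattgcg
RPL4, chr15:66504841-66504900, minus strand: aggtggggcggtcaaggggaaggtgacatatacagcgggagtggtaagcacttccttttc
RPL22, chr1:6199581-6199640, minus strand: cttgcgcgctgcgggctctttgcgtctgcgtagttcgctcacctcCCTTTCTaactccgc
RPL41, chr12:56116588-56116647, plus strand: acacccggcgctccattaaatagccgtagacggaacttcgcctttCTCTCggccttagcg
RPL38, chr17:74203633-74203692, plus strand: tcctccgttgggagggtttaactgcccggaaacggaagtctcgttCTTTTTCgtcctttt

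RPL13 and RPL4 have no capitals, since no TOP tract opens at their annotated base; the annotated base need not be the one used in these cells. Within 250 bases before and 50 after the start, on either strand, the SP1 box GGGCGG was found in 54.8% of the 62 promoters and in 44.6% of all promoters. The ETS motif CCGGAAG stood in 33.9% against 10.7%, and the YY1 motif AAGATGGC in 9.68% against 3.03%.

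Depth and identity of the libraries were as follows. Gene counts summed to 20300744 to 26459528 per library. Levels are given as CPM, edgeR's depth-normalized counts with library sizes scaled by TMM, as mean ± SD over 3 libraries. UGT2B28 lay at 0.525 ± 0.380 CPM in the control, 0.343 ± 0.301 in the libraries labelled knockdown and 62.3 ± 7.22 in the rescue. The first difference did not pass edgeR's quasi-likelihood test (log2 fold change -0.60, adjusted p = 0.518), so the counts do not show the knockdown at this level, while the overexpression is plain. All 9 luminal prostate markers had counts in every group, with KLK3, which encodes prostate-specific antigen, at 1426 CPM in the control, 3746 in the knockdown and 4403 in the rescue. The immune markers PTPRC and CD3E were at 0 in every library, and CD14 had at most 4 counts in a library. The summed neuroendocrine list, which was nearly all ENO2, a gene that other cells also use, ranged over 1095 to 1206 CPM in the control, 686 to 816 in the knockdown and 1149 to 1182 in the rescue. The summed fibroblast, endothelial and immune list ranged over 65.4 to 75.7, 48.7 to 57.9 and 64.8 to 76.3 CPM in the same order. It was nearly all COL1A1, with means of 68.1, 48.3 and 63.1 CPM. VWF had 2.43, 5.75 and 6.47 CPM and COL3A1 0.889, 0.0828 and 0.123. The basal list ranged over 1.95 to 3.20, 3.40 to 5.47 and 2.99 to 4.75 CPM. In it KRT14 had 1.77, 4.1 and 3.41 CPM and KRT15 0.549, 0.0267 and 0.176. The part of these lists in the results below was not tested.

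The ribosomal protein genes took 6.59%, 9.04% and 8.84% of gene counts in control replicates 1 to 3, 7.59%, 8.55% and 8.33% in the knockdown, and 6.81%, 7.33% and 6.68% in the rescue. The 3 rescue libraries lay below all 3 knockdown libraries and below control replicates 2 and 3, but above control replicate 1. The means were 8.16% ± 1.36 (SD, n = 3) in the control, 8.16% ± 0.503 in the knockdown and 6.94% ± 0.344 in the rescue. Without control replicate 1 the control mean was 8.94%. In bulk RNA, fewer cells of a type and less RNA per cell cannot be told apart, and a share of counts says nothing of the RNA content of a cell.

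In both subunits all rescue libraries lay below control replicates 2 and 3. They lay below all knockdown libraries for the 60S genes, while for the 40S genes rescue replicate 2 (2.65%) was level with knockdown replicate 1 (2.64%). Against control replicate 1 (4.37% for 60S, 2.23% for 40S) they lay above for the 40S genes and on both sides for the 60S genes. The 60S genes held 5.38% ± 0.873 of counts in the control, 5.30% ± 0.310 in the knockdown and 4.43% ± 0.219 in the rescue. The 40S genes held 2.79% ± 0.488, 2.86% ± 0.193 and 2.51% ± 0.125. The ribosomal protein pseudogenes, which share sequence with these genes and could take or lend reads, held only 0.0339%, 0.0340% and 0.0330%.

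**Figure D1:**
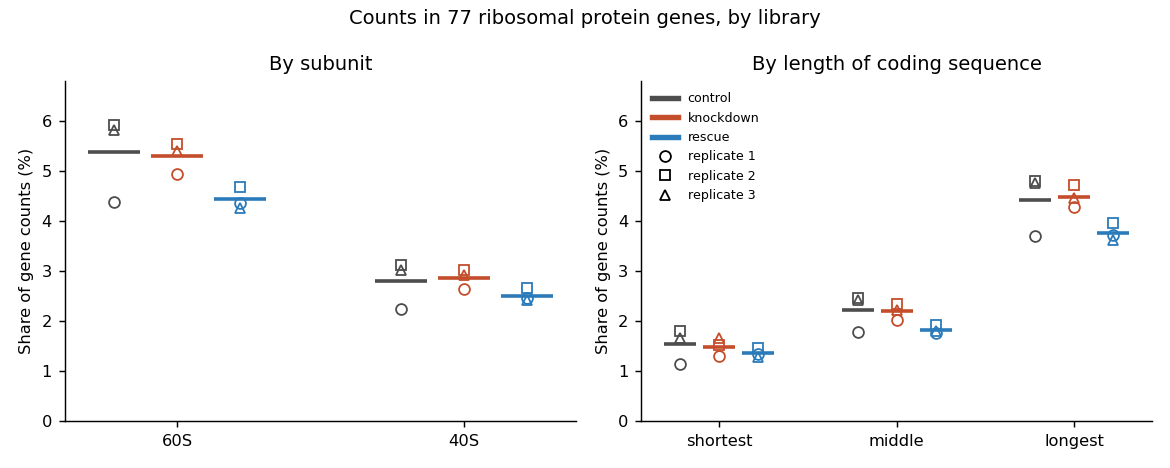
Share of gene counts (%) in the ribosomal protein genes by library, split by subunit (left) and by length of the coding sequence in 3 classes (right); symbols are the replicates and bars the group means. Control replicate 1 lies below the other control libraries in every class, and the rescue means for both subunits, 4.43% and 2.51%, lie below the knockdown means.

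Control replicate 1 stood apart. For 73 of the 77 genes its level was below both other control libraries, and the median gene lay -0.49 (log2) from the mean of those libraries. The gap followed the length of the protein: the median was -0.64 for the shortest class of the genes, -0.52 for the middle class and -0.46 for the longest class (25 to 133, 135 to 188 and 192 to 427 residues). Spearman's rho between coding length and gap was 0.37 over the 77 genes, which share the same libraries. Other coding genes with a mean of at least 20 CPM were split at the longest coding sequence of the shortest class, 133 residues. Those up to that length (345 genes) lay at -0.29 and longer ones (6822 genes) at 0.00. Genes outside the ribosome with such short coding sequences were thus also low in this library. The longer genes were not matched in length to the middle and longest classes.

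Knockdown replicate 1 deviated the same way to a smaller degree. It lay below both other knockdown libraries for 69 of the 77 genes, with a median of -0.20, and of -0.34, -0.21 and -0.15 from the shortest to the longest class (rho 0.64). Rescue replicate 2 lay above both other rescue libraries for 71 genes, by a median of 0.15. The 345 other short coding genes lay at -0.14 in knockdown replicate 1 and at 0.12 in rescue replicate 2. The shortest class of the ribosomal protein genes lay at -0.34 and 0.17 there. The 6822 longer coding genes lay at 0.00 in both libraries. In the control and the knockdown the library with the lowest ribosomal protein levels also had the largest share of reads that did not align uniquely. The shares were 6.73% in control replicate 1 and 7.62% in knockdown replicate 1, against 5.26% to 6.30% in the other 7 libraries. In the rescue the order differed. Replicate 2, the highest for most of the genes, had the largest share, 6.21%, against 5.57% in replicate 1 and 6.03% in replicate 3. The part of this in the results was not tested.

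**Figure D2:**
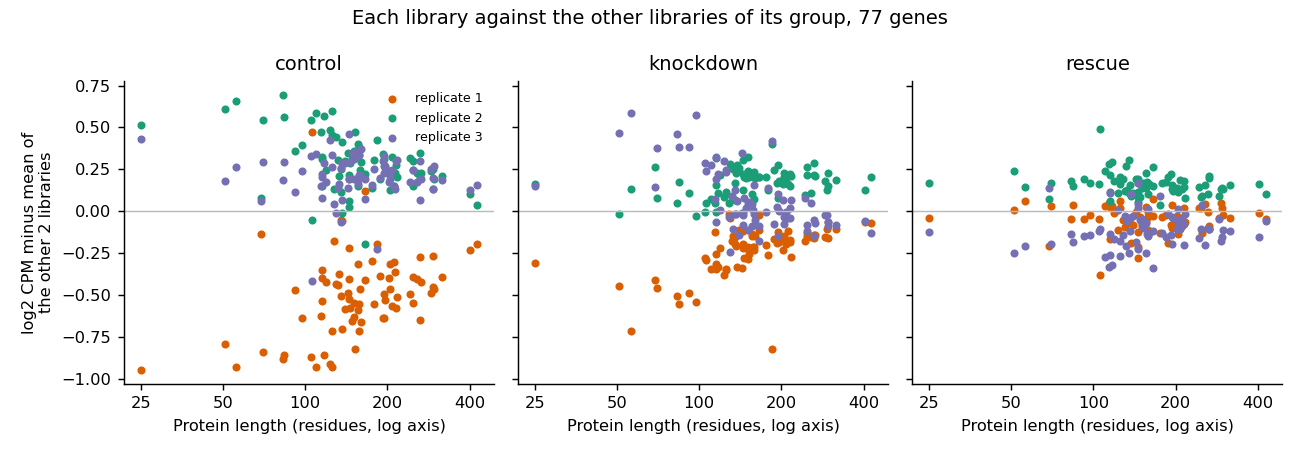
Each point is 1 of the 77 genes in 1 library: its log2 CPM minus the mean of the other 2 libraries of the group (vertical), against protein length in residues (horizontal, log axis). In the control and the knockdown the points of replicate 1 fall toward the short proteins, with a median of -0.64 for the shortest class in the control and -0.34 in the knockdown.

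Most of the smallest proteins followed this, and 4 of the 5 smallest are given first. RPL41, a peptide of 25 residues and the shortest of the ribosome, had 923, 1817 and 1746 CPM in control replicates 1 to 3, 1117, 1391 and 1383 in the knockdown, and 1201, 1324 and 1158 in the rescue. The lowest and the highest of the 9 values were both control libraries. RPL39, which lines the exit tunnel for the nascent chain, had 294, 563 and 461 CPM in the control, 291, 356 and 445 in the knockdown, and 361, 402 and 321 in the rescue. RPL38 had 180, 342 and 305 CPM, then 190, 243 and 279, then 240, 256 and 216. RPS29, a zinc-binding protein of the 40S head, had 76.5, 160 and 133 CPM, then 91.9, 136 and 168, then 144, 149 and 127. For all 4 genes the groups overlapped, and in both the control and the knockdown replicate 1 was lowest. RPS28, of 69 residues, differed from them in the control, with 751, 829 and 821 CPM and a gap of only -0.14 for replicate 1, and had 674, 919 and 869 CPM in the knockdown. The standard error of the log2 fold change had a median of 0.24 over the shortest class and of 0.10 over the longest class in knockdown against control, so a change of a given size could be called less readily in the short genes.

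Per length of coding sequence the genes differed widely in the control. RPL41 had the highest level, 19937 CPM per kb of coding sequence, most of its mRNA being untranslated. RPL13A followed with 5834, RPL29 with 4363, RPS18 with 3915 and RPS28 with 3866. RPLP0 and RPLP1, of the stalk where elongation factors dock, had 3459 and 3621, and RPS6, the 40S protein phosphorylated by S6 kinases, had 2585. Among the lowest were RPS10 (6.89), RPL17 (9.25), RPL36A (12.5), RPL26 (27.3) and RPS15A (135). Each of these 5 shares its strand with an overlapping gene model, for RPS10, RPL17 and RPL36A a readthrough transcript with the next gene. These readthrough genes are listed at 0. The low counts are uncertain as levels, since the tables hold a separate class of ambiguous reads that go to no gene. RPL13A, RPL18, RPL22 and RPS9 also overlap a gene model on their own strand, and RPL4 (ZWILCH), RPL28 (UBE2S) and RPL32 (CAND2) one on the opposite strand. Whether the counting used strand is not stated, so reads of such pairs cannot be told apart.

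In knockdown against control, which asks what changed in the line labelled as having lost UGT2B28, 7 of the 77 genes rose and 1 fell at an adjusted p under 0.05. Over all genes tested, 16.5% rose and 15.6% fell, and the ribosomal protein genes called in either direction were 10.4% of their number, against 32.1% of all genes. Their median log2 fold change was 0.04, and 30 of 77 lay below 0. The median over all genes was 0.01.

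The genes that rose were RPL4, RPL17, RPL22 and RPL26 of the 60S subunit, and RPS9, RPS15A and RPSA of the 40S subunit. RPL4, whose long loop reaches into the exit tunnel, had 2241, 2498 and 2642 CPM in the control and 2974, 3373 and 2893 in the knockdown. The 2 groups did not overlap (log2 fold change 0.32 ± 0.08 SE, adjusted p = 0.00346). RPL22, near the tunnel's exit and known for its role in T cell development, had 168, 194 and 187 CPM against 227, 234 and 225, also without overlap (0.32 ± 0.07, adjusted p = 0.00127). RPSA, a 40S protein also known as the laminin receptor precursor, had 1297, 1796 and 1750 CPM against 1904, 2106 and 1886 (0.28 ± 0.10, adjusted p = 0.026). For RPSA control replicate 1 was the lowest of all 9 libraries, and the knockdown lay above the other control libraries as well.

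Among the genes called, the largest fold changes were those of RPL17 and RPL26, which had few counts. RPL17, which lines the tunnel opposite RPL4, rose by 0.91 ± 0.21 (adjusted p = 0.00127), from 4.56, 6.26 and 4.49 CPM to 6.17, 11.3 and 11.4. RPL26, a Diamond-Blackfan anaemia gene, rose by 0.51 ± 0.15, from 9.05, 12 and 14.6 CPM to 16, 17.9 and 16.8. RPS15A rose by 0.39 ± 0.12 and RPS9 by 0.29 ± 0.11. RPL17, RPL22, RPL26, RPS9 and RPS15A are among the genes with an overlapping model on the same strand. Their changes are thus uncertain as changes of the ribosomal protein mRNA. RPL8, a protein beside the peptidyl transferase centre, was the only one that fell (-0.30 ± 0.09, adjusted p = 0.0176), from 1580, 2121 and 2068 CPM to 1455, 1644 and 1600, with control replicate 1 inside the range of the knockdown.

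These counts changed with control replicate 1. Without it 3 genes rose, RPL4 (0.26), RPL17 (0.83) and RPL22 (0.26), beside a background of 14.2%, and 18 fell, beside a background of 13.4%. The median turned from 0.04 to -0.10, with 53 of the 77 genes below 0. The largest falls were those of RPL35A (-0.52), RPL41 (-0.46), RPL38 (-0.45) and RPL8 (-0.42). Without knockdown replicate 2, 4 genes rose, beside a background of 13%, and the fall of RPL8 was lost without control replicate 2, control replicate 3 or knockdown replicate 1. RPL4, RPL17 and RPL22 were called whichever of the 9 libraries was left out.

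**Figure D3:**
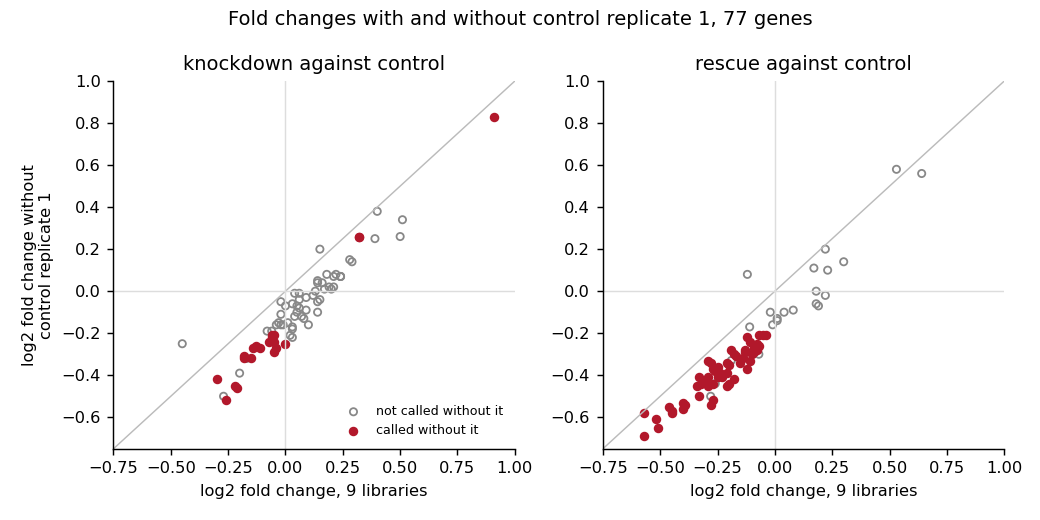
Log2 fold change of each of the 77 genes with all 9 libraries (horizontal) against the value without control replicate 1 (vertical), for knockdown against control (left) and rescue against control (right); filled points have an adjusted p under 0.05 without that library and the diagonal marks equal values. Nearly all points lie under the diagonal, and the medians move from 0.04 to -0.10 and from -0.18 to -0.33.

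Rescue against knockdown compares the line that overexpresses UGT2B28, far above the control level, with the knockdown line, and the selection drug differs as well. Here no ribosomal protein gene rose and 19 of 77 (24.7%) fell by the edgeR test, beside backgrounds of 5.2% and 4.88%; in either direction 10.1% of all genes were called. At an unadjusted p under 0.05 none was higher either and 30 were lower, beside 2107 higher and 2096 lower of all 18389 genes tested. DESeq2 called 0 higher and 19 lower (backgrounds 5.95% and 5.12%) and limma voom 0 and 20 (5.24% and 4.45%). The fold changes were small: their median was -0.21 and 72 of the 77 lay below 0, against a median of -0.005 and 50.8% below 0 over all genes. All 3 rescue libraries lay below all 3 knockdown libraries in 39 genes (50.6%), beside 13.7% of all genes. Control replicate 1 is in neither group of this comparison and enters it only through the shared filter, scaling and estimate of the spread.

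RPL28 fell most, by 0.54 on the log2 scale (SE 0.09, adjusted p = 7.8e-05). Its levels were 764, 1011 and 916 CPM in the knockdown and 563, 641 and 645 in the rescue, beside 888, 907 and 941 in the control, so the rescue lay below both other groups without overlap. RPL13 fell by 0.52 (SE 0.09), from 1940, 2209 and 2013 CPM to 1374, 1523 and 1405. RPL28 and RPL13 were among the 3 genes still called when the test asked for a change of more than 1.2-fold.

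At the stalk of the 60S subunit, RPL12, which with RPLP0 forms the base that elongation factors contact, fell by 0.42 (SE 0.09), from 1234, 1428 and 1248 CPM to 957, 1039 and 917. RPLP0 fell by 0.31 (SE 0.09), from 3233, 3707 and 3271 CPM to 2689, 2942 and 2594. Of the stalk tip proteins, RPLP1 had -0.24 (SE 0.17) and RPLP2 -0.12 (SE 0.13), neither past the test. RPL4 fell by 0.43 (SE 0.08, adjusted p = 0.00078), to 2235, 2395 and 2222 CPM, close to the control's 2241, 2498 and 2642. This comparison and the one before it share the knockdown libraries, so the rise and the fall of RPL4 are not independent. RPL3, a protein of the peptidyl transferase centre, fell by 0.34 (SE 0.09), from 3366, 3680 and 3373 CPM to 2731, 2956 and 2553. The other 60S genes that fell were RPL7A, RPL13A, RPL19, RPL23A, RPL29 and RPL32, by 0.30 to 0.40.

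In the 40S subunit 6 of 31 genes fell, all but RPS26 proteins of the head. RPS12, at the beak of the head, fell by 0.52 (SE 0.11, adjusted p = 0.00297), from 653, 739 and 740 CPM to 481, 560 and 449. RPS15, RPS19 and RPS26 fell by 0.34 each and RPS28 by 0.33. Among the 14 head proteins in all, 5 fell and the median was -0.18, near the -0.20 of the whole 40S subunit. Of the 10 Diamond-Blackfan anaemia genes in the list, RPS19 and RPS26 fell, and the median was -0.21.

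The fall was spread over the classes of genes. In the 60S subunit 13 of 46 fell, with a median of -0.23. By length, 3 of the 25 shortest, 8 of the 26 middle and 8 of the 26 longest fell, with medians of -0.12, -0.27 and -0.25, and all 26 longest lay below 0. Of the genes with a snoRNA inside, 10 of 28 fell (median -0.25), and of those without one, 9 of 49 (median -0.19). Of the 42 genes with a TOP start 8 fell (median -0.21), and of the 20 genes with a promoter in the table but no TOP start also 8 (median -0.26). None of these class differences was tested. RPL5 and RPL11, which with 5S RNA form the particle that can bind MDM2, had -0.22 (SE 0.10) and -0.18 (SE 0.13), neither past the test.

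The number of genes called as lower depended on single libraries. It was 8 without knockdown replicate 2, beside a background of 2.9%, and 10 without knockdown replicate 3, beside 3.43%. It was 8 without rescue replicate 1, beside 2.92%, and 9 without rescue replicate 3, beside 2.98%. Without control replicate 1 it was 36, beside 6.12%. The median lay between -0.26 and -0.14 whichever of the 9 libraries was left out. RPL4, RPL12, RPL13, RPL28 and RPS12 were among the 7 genes called whichever of the 9 libraries was left out.

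**Figure D4:**
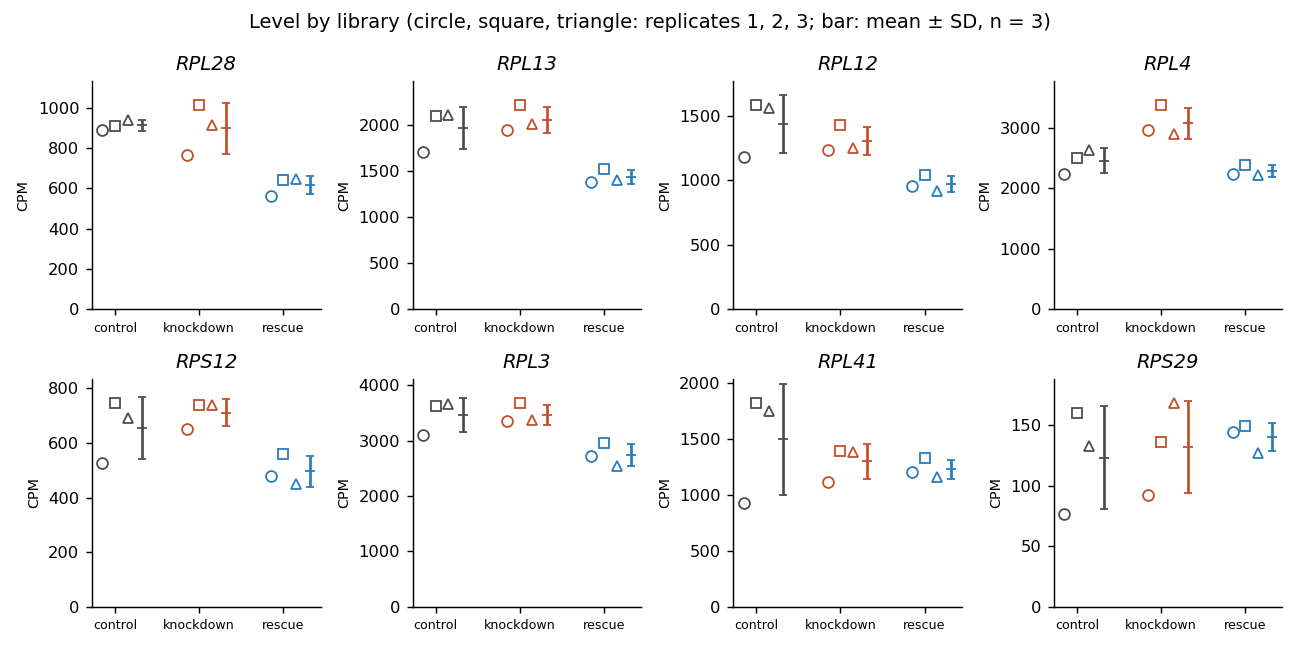
Level in CPM by library for 8 genes, with symbols for the replicates and the mean ± SD (n = 3) beside them; each vertical axis starts at 0. In RPL28, RPL13, RPL12, RPL4, RPS12 and RPL3 the rescue lies below the knockdown without overlap, while in RPL41 and RPS29 the control and knockdown libraries spread over the range of the rescue.

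In rescue against control 1 gene rose and 20 (26%) fell, beside backgrounds of 19% and 18.8% (37.8% in either direction). The median was -0.18, against -0.003 over all genes, and 63 of 77 lay below 0. All 3 rescue libraries lay below all 3 control libraries in 10 genes (13%), beside 24% of all genes. They lay above in 2 (2.6%), beside 24.1%. This comparison shares the rescue libraries with the comparison against the knockdown and the control libraries with the first.

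RPL12 fell by 0.57 (SE 0.09) and RPL28 also by 0.57 (SE 0.09), each without overlap between the groups. RPL29 fell by 0.51, RPL13 by 0.46, and RPL7A and RPL8 by 0.45 each. These 6 were among the 7 genes (9.09%) also called against a change of 1.2-fold, beside 10.3% of all genes lower by that test. RPS12 fell by 0.40 (SE 0.11), with the lowest control library, 528 CPM, inside the range of the rescue. Also among the 20 that fell were RPL3, RPL7, RPL10, RPL18, RPL19, RPL32, RPLP0, RPS15, RPS24, RPS26 and RPS28. RPL17 rose by 0.64 (SE 0.21, adjusted p = 0.0177), with the caution on its overlapping model given above. RPS10 had 3.63, 3.06 and 3.54 CPM in the control and 5.09, 5.61 and 4.12 in the rescue, a difference of 0.53 (SE 0.23) that did not pass the test (adjusted p = 0.0641).

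Control replicate 1 moved this comparison too. Without it 55 genes fell, beside a background of 17%, and the median was -0.33. Without control replicate 2 the genes that fell numbered 11, beside 16.5%, without control replicate 3 they numbered 12, beside 16%, and without rescue replicate 1 they numbered 13, beside 15.5%. The rise of RPL17 was lost without control replicate 1, control replicate 3 or rescue replicate 2. Without control replicate 2 there were 2 risen genes, beside 17% of all genes, and without rescue replicate 3 there were 3, beside 16.9%. The 11 genes whose fall was called whichever library was left out included RPL3, RPL7A, RPL8, RPL12, RPL13, RPL19, RPL28, RPL29, RPL32 and RPS12.

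**Figure D5:**
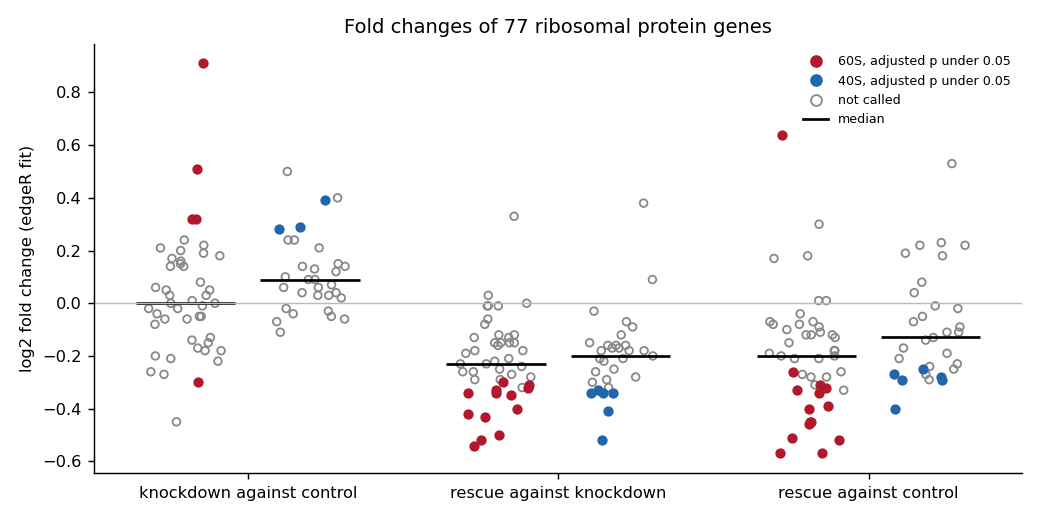
Log2 fold change of the 77 genes in the 3 comparisons, 60S genes on the left and 40S genes on the right of each; filled points have an adjusted p under 0.05 and bars are the medians. In rescue against knockdown 72 of the 77 points lie below 0, with a median of -0.23 for the 60S genes and -0.20 for the 40S genes.

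Some ribosomal proteins have symbols outside the rule. RACK1, a signalling scaffold on the 40S head, had 1652 ± 147, 1525 ± 85.7 and 1193 ± 51.6 CPM in control, knockdown and rescue, and fell by 0.35 in rescue against knockdown (adjusted p = 0.00365). FAU, a ubiquitin-like protein fused to RPS30, had 201 ± 40.9, 223 ± 25.9 and 194 ± 18.9 CPM, with no change past the test in any comparison.

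Of the paralogs, copies of ribosomal protein genes with more restricted use, 7 of 8 were tested and 3 rose in knockdown against control, beside 16.5% of all genes. RPL22L1, the paralog of RPL22, rose by 0.47 (adjusted p = 0.016), from 60.2 ± 12.2 to 83.2 ± 9.50 CPM, as RPL22 rose by 0.32. RPL26L1 rose by 0.43, from 28.8 ± 5.96 to 38.8 ± 2.51 CPM, and RPS27L, a p53 target, by 0.60, from 81.2 ± 17.7 to 123 ± 18.8 CPM. The call of RPL26L1 was lost without control replicate 1, and those of RPL22L1 and RPS27L without knockdown replicate 2, without knockdown replicate 3 and with trends in length and GC content removed. In rescue against knockdown none of the 7 passed the edgeR test. At an unadjusted p under 0.05, 1 was higher and 2 were lower, beside 2107 and 2096 of all 18389 genes tested. DESeq2 called 1 higher and 1 lower, and limma voom 0 higher and 1 lower. Paralogs and pseudogenes are close in sequence to these genes, and how reads were shared between them in alignment is not given in the sources used here.

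Other mRNAs with TOP tracts include those of elongation factors and of the poly(A)-binding protein. Of 15 tested, 6 rose and 1 fell in knockdown against control, beside 16.5% and 15.6% of all genes. In rescue against knockdown none rose and 6 fell by the edgeR test, beside 5.2% and 4.88% of all genes. At an unadjusted p under 0.05, 0 were higher and 9 lower, beside 2107 and 2096 of all 18389 genes tested. DESeq2 and limma voom each called 0 and 6 (backgrounds 5.95% and 5.12%, and 5.24% and 4.45%). The 6 that rose became 3 without knockdown replicate 2, and the 6 that fell became 2 without knockdown replicate 2 or rescue replicate 1 and 3 without rescue replicate 3. EEF1A1, which delivers aminoacyl-tRNA, rose by 0.39 in knockdown against control and fell by 0.32 in rescue against knockdown. These comparisons share the knockdown libraries, so its rise and fall are not independent. Its levels were 9177 ± 837, 12039 ± 910 and 9630 ± 591 CPM in control, knockdown and rescue. PABPC1, the poly(A)-binding protein, had 2025 ± 99.6, 2101 ± 98.0 and 1637 ± 11.2 CPM and fell by 0.36 in the rescue. EEF2, the translocase, fell by 0.26 there, a call that held without control replicate 1 but was lost when any other library was left out, and the fall of EEF1A1 was lost without knockdown replicate 2, rescue replicate 1 or rescue replicate 3. TPT1 rose by 0.46 in knockdown against control and had 0.18, not past the test, in rescue against knockdown. As a share of counts the whole list held 2.5% ± 0.1, 2.83% ± 0.115 and 2.45% ± 0.0651.

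The genes that make ribosomes were read from 3 further lists. For edgeR calls at an adjusted p under 0.05, the shares of all genes are again 16.5% higher and 15.6% lower in knockdown against control. In rescue against knockdown they are 5.2% and 4.88%. Of 41 biogenesis factors 3 rose and 4 fell in knockdown against control (5 rose without control replicate 1, 2 fell without knockdown replicate 1). In rescue against knockdown 1 was higher and 9 lower at an unadjusted p under 0.05, beside 2107 and 2096 of all 18389 genes tested. DESeq2 called 0 and 4 there and limma voom 0 and 5. By edgeR none rose and 4 fell in rescue against knockdown. The 4 that fell were FBL (-0.28), the methyltransferase of box C/D particles, and PES1 (-0.28), RRP1 (-0.44) and DDX56 (-0.27), factors of 60S maturation or nucleolar helicases. All 4 calls were lost without rescue replicate 3, and 1 remained without knockdown replicate 2 and 2 without knockdown replicate 3. Of 11 genes for RNA polymerase I and its factors, 1 rose and 1 fell in knockdown against control, and 1 fell in rescue against knockdown, TAF1D of the promoter selectivity factor, by 0.46, whichever library was left out. Of 9 import factors and chaperones, 4 rose in knockdown against control, among them the importins IPO5 and KPNB1 (0.21 each). The count that rose was 2 without any one of the control libraries, without knockdown replicate 1 or without knockdown replicate 2, and the calls of both importins were lost without control replicate 1. AATF and PDCD2 fell in rescue against knockdown, by 0.31 and 0.32, and both calls were lost without knockdown replicate 2, rescue replicate 1 or rescue replicate 3.

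Of 23 genes of mTORC1 and its control of TOP mRNAs, 7 rose and 7 fell in knockdown against control, beside 16.5% and 15.6% of all genes, and 2 rose and 2 fell in rescue against knockdown, beside 5.2% and 4.88%. Without knockdown replicate 2 the 7 that fell became 4. DDIT4, an inhibitor of mTORC1, had 1064 ± 87.1 CPM in the control, 3263 ± 197 in the knockdown and 2212 ± 252 in the rescue. It rose by 1.62 in knockdown against control and fell by 0.56 in rescue against knockdown. These comparisons share the knockdown libraries, so such paired changes are not independent. In the same comparisons EIF4EBP1, a repressor of cap-dependent translation, rose by 0.83 and fell by 0.43. SESN3, a sestrin, fell by 0.66 and rose by 0.41, and MTOR rose by 0.37 and by 0.31. The latter call of MTOR was lost without knockdown replicate 2 or 3 or any rescue library. TSC1, of the complex that restrains mTORC1, fell by 0.66. These are mRNA levels and do not measure the activity of the pathway.

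Of 22 initiation factors 10 rose and 3 fell in knockdown against control, beside 16.5% and 15.6% of all genes. The count that fell was 1 without control replicate 3 or knockdown replicate 1. Those that rose included EIF4A1 (1.06), EIF5 (0.51), EIF2S1 (0.51) and the cap-binding EIF4E (0.45). The level of EIF4A1 was low, 15.4 ± 2.8 CPM in the control and 32 ± 5.58 in the knockdown, beside 683 CPM for EIF4A2 in the control. Overlapping gene models were examined only for the ribosomal protein genes, so the count of EIF4A1 is uncertain as a level. In rescue against knockdown 1 rose, EIF4E by 0.30, and 2 fell, EIF3D by 0.23 and EIF3I by 0.31, beside 5.2% and 4.88% of all genes. The calls of EIF3D and EIF3I were lost without knockdown replicate 2, rescue replicate 1 or rescue replicate 3, that of EIF3D also without control replicate 3, knockdown replicate 1 or rescue replicate 2 and with library totals, and that of EIF4E without knockdown replicate 1, rescue replicate 1 or rescue replicate 2. Of the 78 mitochondrial ribosomal protein genes, which serve the separate ribosome of that organelle, 24 rose and 1 fell in knockdown against control (median 0.19), beside the same shares of all genes, and 2 rose and 4 fell in rescue against knockdown (median -0.05), beside 5.2% and 4.88%. Without control replicate 1 the risen genes numbered 13 and the median was 0.11, and without knockdown replicate 2 they also numbered 13. The 4 that fell in rescue against knockdown became 2 without knockdown replicate 2, rescue replicate 1 or rescue replicate 2, and the 2 that rose became 0 without knockdown replicate 1, knockdown replicate 3 or rescue replicate 2. Of these mitochondrial genes MRPS18A rose by 0.73 and MRPL10 by 0.51 in knockdown against control, and MRPL10 fell by 0.40 in the rescue against the knockdown. Both changes of MRPL10 rest on the same knockdown libraries.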

How the data were processed

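The authors deposited whole-number counts of reads for each gene, 1 table for each library. FastQC, cutadapt, HISAT2, HTSeq and hg19 are named per the submitters' processing notes; versions, library kit and strand setting were not given in the sources used here. Symbols came from the symbol table for 56414 identifiers and from GENCODE v29 for a further 444, and 4022 stayed without one. Rows that name no gene were kept out of library sizes: reads outside any gene made up 48.83% to 50.71%, ambiguous reads 2.26% to 2.67%, and reads without a unique alignment 5.26% to 7.62%.

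The analysis used edgeR 4.0.16 in R 4.3.3: filterByExpr with a minimum count of 10, TMM, and a robust quasi-likelihood fit of all 9 libraries with 1 mean per group and 6 residual degrees of freedom. Benjamini-Hochberg adjusted p-values cover all 18389 genes tested, with 0.05 as threshold, and every adjusted p in the text comes from this test. Standard errors were worked back from the F statistic. Deviations between libraries used log2(CPM + 0.5). DESeq2 1.42.0, limma 3.58.1 and further settings served as alternatives. The scripts were tested on simulated data. Libraries of a group differed by more than sampling noise.

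The members and gene lists were chosen with earlier results of these data known. Per comparison the text names up to 10 called members with the smallest adjusted p, the 5 highest and 5 lowest fold changes, a set of fixed members, the 5 highest levels per length, paralogs and proteins outside the symbol rule, and up to 4 genes of each other list, apart from a few genes that are not reported here by name but stay in all counts; other names complete a count and were chosen after their values were seen. Coding lengths and overlaps come from GENCODE v29.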

Additional observations from a re-analysis of the deposited data

How the results depend on the processing

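Alternatives were DESeq2, limma voom, RLE size factors, library totals, scaling from the other genes, no filter on low counts, the replicate number as a block, removal of trends with length and GC content, a test against a 1.2-fold change, the 2 groups compared alone, and the omission of each library. No named gene with a call changed direction under them, but knockdown against control as a whole did: its median ran from -0.10 without control replicate 1 to 0.13 without control replicate 2, and without control replicate 1 more ribosomal protein genes were called lower than higher. The median ran from -0.26 to -0.14 in rescue against knockdown and from -0.33 to -0.06 in rescue against control. The mean shares of counts ran from 7.71% to 8.94% in the control, 7.96% to 8.44% in the knockdown and 6.74% to 7.19% in the rescue. Against a 1.2-fold change, 2971 genes were called in knockdown against control (5899 otherwise), 495 in rescue against knockdown (1854) and 3884 in rescue against control (6946). Ribosomal protein genes then numbered 1 higher and 0 lower, 3 lower, and 0 higher and 7 lower. Without the filter 13 were higher in knockdown against control, beside 8.82% of all genes, and 29 lower in rescue against knockdown, beside 2.64%. With the 2 groups alone 31 were lower in rescue against knockdown, beside 6.01% of all genes. With trends removed 4 were lower in knockdown against control, beside 15.2%. Leaving out 1 library gave 3 to 8 higher and 0 to 18 lower in knockdown against control. The shares of all genes were then 13% to 15.7% and 12.8% to 15.2%. In rescue against knockdown 8 to 36 were lower, beside 2.9% to 6.12%. In rescue against control 0 to 3 were higher and 11 to 55 lower, beside 15.5% to 18.9% and 15.4% to 18.4%. All genes called in rescue against knockdown ran from 1196 to 2363. Where a group keeps 2 libraries, the spread is pooled over the groups. No ribosomal protein gene was called higher in rescue against knockdown under any of these alternatives. The cause of these differences was not tested, apart from the stricter test, which calls fewer genes by construction.

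Over all genes tested, the deviations of same-numbered libraries of different groups had correlations of -0.037 to 0.076, so the numbers were not taken as pairs. Over the ribosomal protein genes alone replicate 2 stood highest in each group, by a median of 0.29, 0.18 and 0.15 in control, knockdown and rescue, and replicate 1 lay at -0.49, -0.20 and -0.04. With the replicate block, 13 ribosomal protein genes were higher in knockdown against control, 30 were lower in rescue against knockdown, and 3 were higher in rescue against control. The shares of all genes were then 17.9%, 6.17% and 20.2%.

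Precision was set by the spread between libraries more than by depth: the median standard error of the 77 genes in knockdown against control was 0.12, and 0.08 without control replicate 1. Only 1 knockdown line was sequenced, and selection differed between the groups.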
